A study of Acacia koa with 4 samples.

Results

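Growing plant cells enlarge when enzymes and proteins in the wall loosen it, and the transcripts described here encode those wall-loosening proteins in koa (Acacia koa), a Hawaiian tree of the legume family. They were chosen by their descriptions, as pectinesterases, polygalacturonases, pectate lyases, xyloglucan enzymes, expansins and endo-1,4-beta-glucanases, and 2 endoxylanases whose descriptions also matched were left out. The choice gave 80 of the 4000 transcripts on the array, with 47 in pectin metabolism, 12 in xyloglucan metabolism, 10 expansins and 11 endoglucanases. The descriptions are those of similar proteins, so each names a likely relative and not a tested function. The search terms also took in 9 transcripts that do not loosen walls, which were 4 polygalacturonase-inhibiting proteins, 1 pectinesterase inhibitor and 4 xyloglucan glycosyltransferases.

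The study compared stressed with unstressed koa seedlings to find transcripts that respond to a mechanical stimulus. Stressed seedlings had their stems bent by hand towards the cardinal directions without being wounded, and unstressed seedlings were not bent. Each group was 2 replicates, each a pool of about 20 seedlings on 1 array. The labels name no strain, age or time between bending and freezing, and the pooled powder mixed the organs of many seedlings. A lower value can therefore mean fewer cells of a type or less RNA per cell, which cannot be told apart here.

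Pectin, largely a chain of galacturonic acid, fills the space between cellulose microfibrils and glues neighbouring cells together. Pectinesterases strip methyl groups from it, after which calcium may stiffen the chains or polygalacturonases and pectate lyases may cut them. Xyloglucan coats and tethers microfibrils, xyloglucan endotransglycosylases cut and rejoin it, and expansins loosen the contacts between polymers without cutting them. In Arabidopsis the touch-induced gene TCH4 encodes a xyloglucan endotransglycosylase, which makes the family a classical readout of bending and touch.

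No wall-loosening transcript passed the test for a difference between stressed and unstressed pools in a fit with the group as its 1 term. The test was limma's on log2 intensity, with p-values adjusted by Benjamini-Hochberg over all 4000 transcripts and a threshold of 0.05. It called 0 of the 80 members, against 38 of all transcripts (0.95%). Of all transcripts, 37 were called higher (0.925%) and 1 lower (0.025%) in stressed pools. The smallest adjusted p among the members was 0.347. At an unadjusted p under 0.05 there were 3 members, or 3.75% of members against 5.5% of all transcripts. In stressed pools 2 of them were higher, against 3.82% of all transcripts, and 1 was lower, against 1.68%. The number of such members depended on single arrays, and its share over all transcripts with 1 array left out was not computed. All 3 of these members were pectinesterases.

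Most members were bounded to less than 2-fold. For 71 of 80 (88.8%), limma's 95% confidence interval of the log2 difference, unadjusted for the number of transcripts, lay within a 2-fold change in either direction, against 92.1% of all transcripts. The other 9 intervals reached 2-fold or beyond. Differences ran from −0.68 to 0.78 on the log2 scale, and 4 members differed by more than 0.5 in either direction. The median log2 difference was −0.06 over the members and −0.04 over all transcripts. The members' median lay between −0.05 and −0.03 when 1 array was left out, and without the dimmest 25% of transcripts both medians were −0.04. It was negative for 54 of 80 members (67.5%), against 60.8% of all transcripts.

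**Figure D1:**
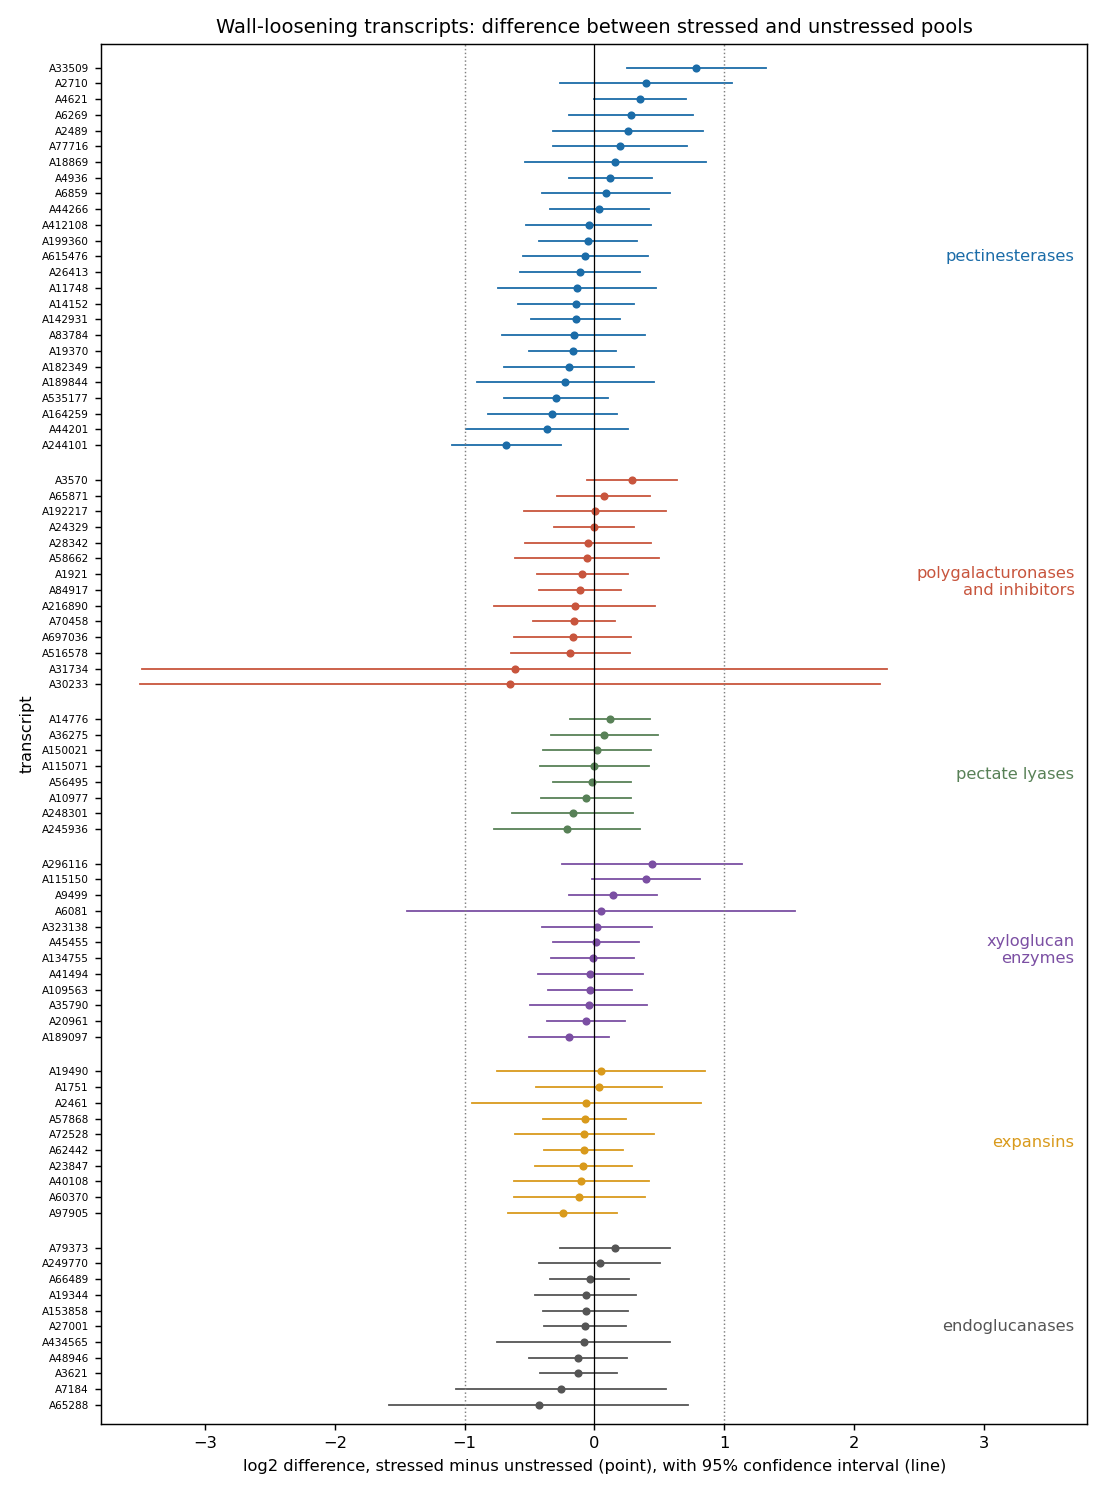
Log2 difference between stressed and unstressed pools (x axis, stressed minus unstressed) for each of the 80 wall-loosening transcripts (y axis), as points with 95% confidence intervals from limma as lines, grouped and coloured by class. Dotted lines mark a 2-fold difference. All but 3 intervals span 0, and the polygalacturonases A30233 and A31734 have the widest.

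The groups did not overlap for 20 members, meaning that both stressed arrays lay on one side of both unstressed arrays. In 8 of these the stressed arrays were higher (10%, against 12% of all transcripts) and in 12 they were lower (15%, against 19.5%). The remaining 60 members had overlapping groups. The separate members were 9 of 25 pectinesterases, 3 of 14 polygalacturonases and their inhibitors, 1 of 8 pectate lyases, 4 of 12 xyloglucan transcripts, 2 of 10 expansins and 1 of 11 endoglucanases. The share over all transcripts in either direction was 31.5%.

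Pectinesterases held the largest differences of both signs. Pectinesterase-2 A33509 had RMA intensities of 458 and 542 on the stressed arrays, against 342 and 244 on the unstressed arrays. Both stressed pools were above both unstressed pools, at 1.72-fold (95% confidence interval 1.19 to 2.50), but the transcript did not pass (limma adjusted p = 0.460, unadjusted 0.0132). Pectinesterase A244101 had 311 and 293 on the stressed arrays, against 428 and 546 on the unstressed arrays. Both stressed pools were below both unstressed pools, a log2 difference of −0.68 (−1.10 to −0.26, limma adjusted p = 0.347, unadjusted 0.0089). Pectin methylesterase A4621 had 3143 and 3503 on the stressed arrays, against 2761 and 2441 on the unstressed arrays. Its groups were also separate, at 1.28-fold (limma adjusted p = 0.909), and its unadjusted p only just passed 0.05. Leaving out each array in turn kept the sign of all 3, with log2 differences of 0.54 to 1.03 for A33509, −0.86 to −0.50 for A244101 and 0.26 to 0.44 for A4621.

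A pair of pectin methylesterases similar to the same protein lay on the higher side together. A2710 had 1893 and 1800 on the stressed arrays, against 1092 and 1796 on the unstressed arrays, so that unstressed replicate 2 nearly reached the stressed level. A6269 had 2920 and 2468 on the stressed arrays, against 1930 and 2526 on the unstressed arrays, and its groups overlapped. Their log2 differences were 0.40 and 0.28, neither past the threshold (limma adjusted p = 0.986 for both). For A2710 the difference was 0.04 without unstressed replicate 1.

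On the lower side, A44201 was at −0.36 (−0.99 to 0.26), A164259 at −0.32 (−0.82 to 0.17) and A535177 at −0.30 (−0.70 to 0.11) on the log2 scale. A164259 had 264 and 256 on the stressed arrays, against 385 and 275 on the unstressed arrays. Its groups were separate, although stressed replicate 1 was only slightly below unstressed replicate 2. A44201 overlapped between groups, with 1534 and 1626 on the stressed arrays against 1615 and 2561 on the unstressed arrays. Limma's adjusted p was 0.986 for all 3. A44201 was at −0.03 without unstressed replicate 2 and −0.70 without unstressed replicate 1, and A164259 at −0.08 without unstressed replicate 1 and −0.57 without unstressed replicate 2.

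Over the 25 pectinesterase transcripts, the inhibitor included, 10 log2 differences were positive and 15 negative, with a median of −0.07. The sign differed with the brightness of the transcript, in a split at the class median that was not planned beforehand. Of the 12 with a mean intensity above the class median, 8 were positive and 4 negative, with a median log2 difference of 0.14. Of the 13 at or below it, 2 were positive and 11 negative, with a median of −0.15. Over all transcripts the median was −0.03 among the dimmest 1000 and −0.04 among the brightest 1000. Among all members, pectinesterases included, 17 of the 21 in the dimmest 1000 transcripts were negative, with a median of −0.16. In the brightest 1000, 15 of 25 members were negative, with a median of −0.06. Over all transcripts 600 of the dimmest 1000 and 620 of the brightest 1000 were negative. The contrast within the pectinesterases rested on unstressed replicate 1. Without that array the brighter pectinesterases had 5 positive and 7 negative differences and the dimmer ones 5 and 8, with medians of −0.04 and −0.08. The 2 pectinesterases with the highest mean intensity, A6859 and A11748, were at 0.09 and −0.14, and each changed sign without unstressed replicate 1. The pectinesterase inhibitor A615476 was at −0.07.

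**Figure D2:**
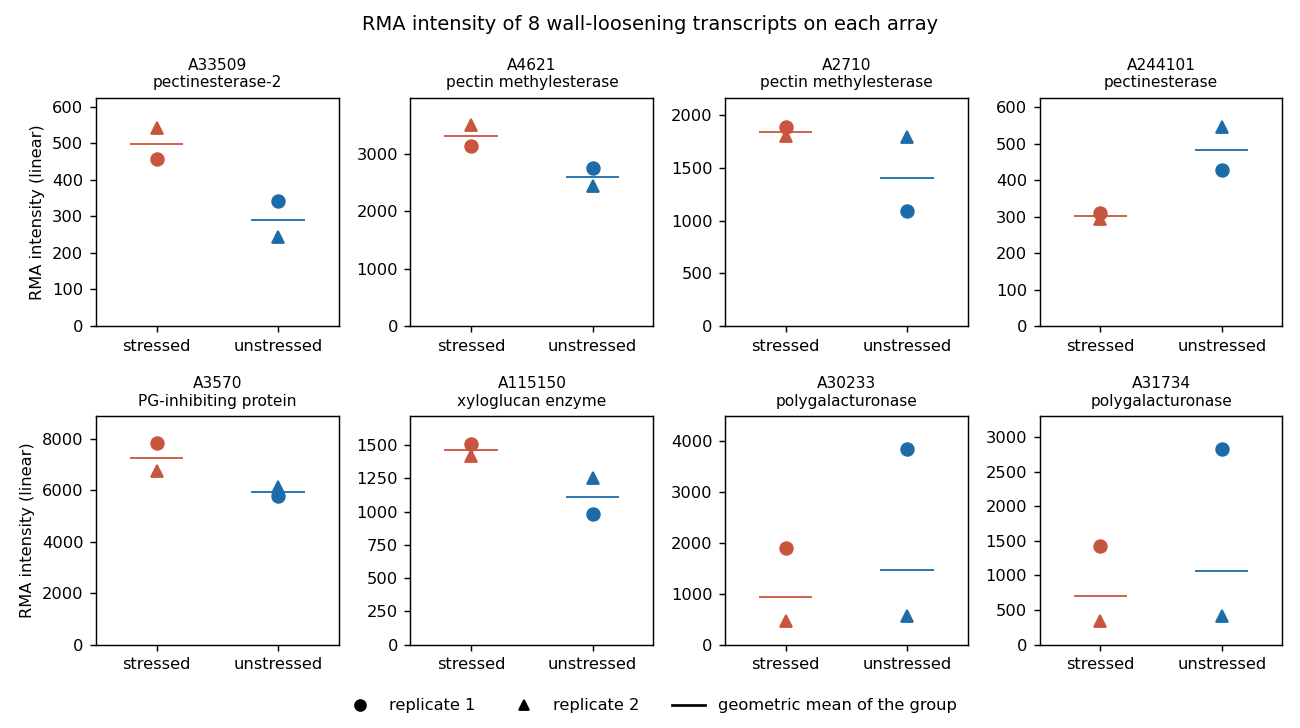
RMA intensity (y axis, linear, from 0) on each array in stressed and unstressed pools (x axis) for 8 transcripts, with circles for replicate 1, triangles for replicate 2 and a line at the geometric mean of each group. Stressed and unstressed points are separate for A33509, A4621, A244101, A3570 and A115150. For A2710 the triangles nearly coincide, at 1800 in stressed and 1796 in unstressed pools. A30233 and A31734 differ more between the replicates of a group than between the groups.

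Polygalacturonases, which hydrolyse the demethylated pectin chain, lay on the lower side without passing the test. All 10 transcripts of this class other than the inhibitors had a negative log2 difference, from −0.65 to −0.00, with a median of −0.16. With 60.8% of all transcripts negative as well, the shared sign is given as a description only. One of the 10, A58662, is described as a non-catalytic subunit. The largest differences, those of A30233 and A31734, changed sign when unstressed replicate 1 or stressed replicate 2 was left out. Between arrays of the same number, the stressed array was the lower in both transcripts. The labels do not say that a number pairs pools. Without unstressed replicate 1 the median over the 14 polygalacturonases and inhibitors was 0.03, against −0.10 with all arrays. A70458 was the 1 polygalacturonase with separate groups, at 167 and 157 on the stressed arrays against 187 and 173 on the unstressed arrays (log2 difference −0.16, limma adjusted p = 0.986). The brightest, A1921, was at −0.09, and A516578, one of the dimmest, was at −0.19.

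The polygalacturonases A30233 and A31734 differed far more between the arrays of a group than between groups. A30233 had 1895 and 462 on stressed replicates 1 and 2, against 3843 and 560 on unstressed replicates 1 and 2. A31734 had 1426 and 342 on the stressed arrays, against 2821 and 406 on the unstressed arrays, in the same order. In both groups, replicate 1 was thus several times brighter than replicate 2. The ratio of replicate 1 to replicate 2 was 4.10 in stressed and 6.87 in unstressed pools for A30233, and 4.17 and 6.95 for A31734. Log2 differences between the groups were −0.65 (−3.50 to 2.20) and −0.62 (−3.49 to 2.26), with limma adjusted p = 0.986 for each. Without unstressed replicate 1 they were 0.74 and 0.78, and without stressed replicate 2 they were 0.37 and 0.41. The similar proteins of these transcripts are different, but both are polygalacturonase precursors. Whether the probes of 1 bound RNA of the other was not tested, so the 2 may not be fully separate measurements.

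A difference of at least 2-fold between the arrays numbered 1 and 2, in the same direction in both groups, was found in 2 of the 80 members (2.5%) and in 16 of all transcripts (0.4%). When transcripts were ordered by the smaller of their ratios in the groups, A31734 and A30233 ranked 2 and 3 of 4000. The labels do not say what the replicate number stands for. Among the other members, the xyloglucan endotransglycosylase A6081 came nearest, with 809 and 461 on the stressed arrays and 1021 and 340 on the unstressed arrays. Its ratios of replicate 1 to replicate 2 were 1.76 in stressed and 3.00 in unstressed pools. Alpha-expansin 8 (A2461) followed, with ratios of 1.67 in stressed and 1.62 in unstressed pools, and endoglucanase A7184 had 1.54 and 1.59.

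**Figure D3:**
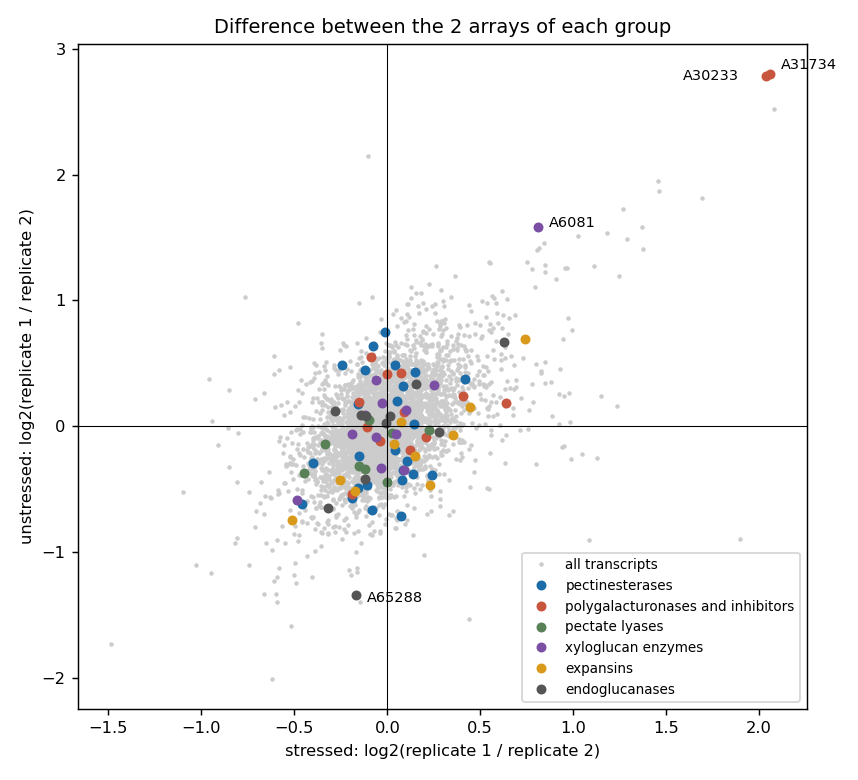
Log2 ratio of replicate 1 to replicate 2 in stressed pools (x axis) and in unstressed pools (y axis), with all 4000 transcripts in grey and the wall-loosening transcripts coloured by class. A30233 and A31734 lie at the upper right edge, with ratios of 4.10 and 4.17 in stressed pools and 6.87 and 6.95 in unstressed pools.

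Polygalacturonase-inhibiting proteins, leucine-rich repeat proteins of the wall best known for blocking the enzymes of fungi, were mixed. A3570 had 7811 and 6758 on the stressed arrays, against 5776 and 6116 on the unstressed arrays. Its groups were separate, at 1.22-fold (0.96 to 1.56, limma adjusted p = 0.986), with log2 differences of 0.18 to 0.39 when each array was left out. A84917 was separate in the opposite direction, at a log2 difference of −0.11. A65871 and A192217 overlapped between groups, at 0.07 and 0.00.

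Pectate lyases, which cut demethylated pectin by elimination and need calcium, had log2 differences of both signs. All 8 intervals lay within a 2-fold change in either direction, as did 92.1% of those of all transcripts. The log2 differences ran from −0.21 (A245936) to 0.12 (A14776). Their median was −0.01, and ranged over −0.08 to 0.06 when each array was left out. A14776 was the 1 member with separate groups, at 6262 and 6692 on the stressed arrays against 6061 and 5857 on the unstressed arrays. A248301 was at −0.17, A10977 at −0.06, A36275 at 0.08 and A150021 at 0.02, and for these 4 the groups overlapped. Limma's adjusted p was at least 0.986 for each of the 8.

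Among the 12 xyloglucan transcripts, 6 log2 differences were positive and 6 negative, with a median of 0.00. The median was 0.11 without unstressed replicate 1 and −0.07 without unstressed replicate 2. The largest differences were in transcripts whose descriptions stop after the word xyloglucan, so their exact enzyme is not given. A115150 had 1505 and 1417 on the stressed arrays, against 982 and 1249 on the unstressed arrays. Both stressed pools were above both unstressed pools, at 1.32-fold (0.99 to 1.76, limma adjusted p = 0.952). A296116 had 1320 and 1848 on the stressed arrays, against 937 and 1406 on the unstressed arrays. Its log2 difference was 0.44 (−0.25 to 1.14), but stressed replicate 1 was below unstressed replicate 2. Without unstressed replicate 1 these differences were 0.23 for A115150 and 0.15 for A296116, and without unstressed replicate 2 they were 0.57 and 0.74. A9499 was at 0.15 with separate groups, at 12479 and 14248 on the stressed arrays against 11778 and 12319 on the unstressed arrays. The other transcripts with such descriptions were A189097, at −0.19 with separate groups, and A35790, at −0.04.

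The 3 transcripts described in full as xyloglucan endotransglycosylases had log2 differences close to 0. A134755 was at −0.01 (−0.33 to 0.31), A323138 at 0.02 (−0.40 to 0.45) and A6081 at 0.05 (−1.45 to 1.55) in stressed minus unstressed pools. A doubling was outside the intervals of A134755 and A323138, but not of A6081, whose replicates spread widely. The 4 glycosyltransferases that build xyloglucan side chains, 3 adding galactose and 1 adding fucose, lay between −0.06 (A20961) and 0.01 (A45455).

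Expansins lay close together and mostly just below 0. Of 10 transcripts, 8 had a negative and 2 a positive log2 difference, with a range of −0.24 to 0.05 and a median of −0.08. All 10 intervals were within a 2-fold change in either direction, as were 92.1% of those of all transcripts. The median rested on the array used, being −0.24 without unstressed replicate 1 and 0.01 at its highest when another array was left out. All 3 beta-expansins, members of a group best known from grass pollen and related to the alpha-expansins, were similar to 1 protein. Of these, A97905 had 2114 and 1654 on the stressed arrays, against 2164 and 2266 on the unstressed arrays. Its groups were separate by a small margin, at −0.24 (−0.66 to 0.17, limma adjusted p = 0.986). A40108 and A72528 were at −0.10 and −0.08 with overlapping groups. Alpha-expansins, the class that loosens walls as they acidify, ranged from −0.12 (A60370) to −0.06 (A2461), with A57868 at −0.08, and overlapped in all 4 cases. Of the expansins with no class given, A62442 was at −0.08 with separate groups, A1751 at 0.04 and A19490 at 0.05.

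Endoglucanases, which cut beta-1,4-linked glucan chains and include enzymes needed for making cellulose, had 9 negative and 2 positive log2 differences, with a median of −0.07. A65288 had the largest, −0.43 (−1.58 to 0.72), with 3788 and 4263 on the stressed arrays against 3405 and 8615 on the unstressed arrays. Unstressed replicate 2 alone was high, and without it the difference was 0.24. A79373, similar to the same protein, was at 0.16. A3621 was the 1 member of the class with separate groups, at 8367 and 8401 on the stressed arrays against 9219 and 9072 on the unstressed arrays. That close agreement within each group went with a small log2 difference of −0.13 (−0.42 to 0.17, limma adjusted p = 0.986). A27001 had 21522 and 23302 on the stressed arrays, against 24204 and 22927 on the unstressed arrays, at −0.07. A7184 was at −0.26 and A249770 at 0.04.

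**Figure D4:**
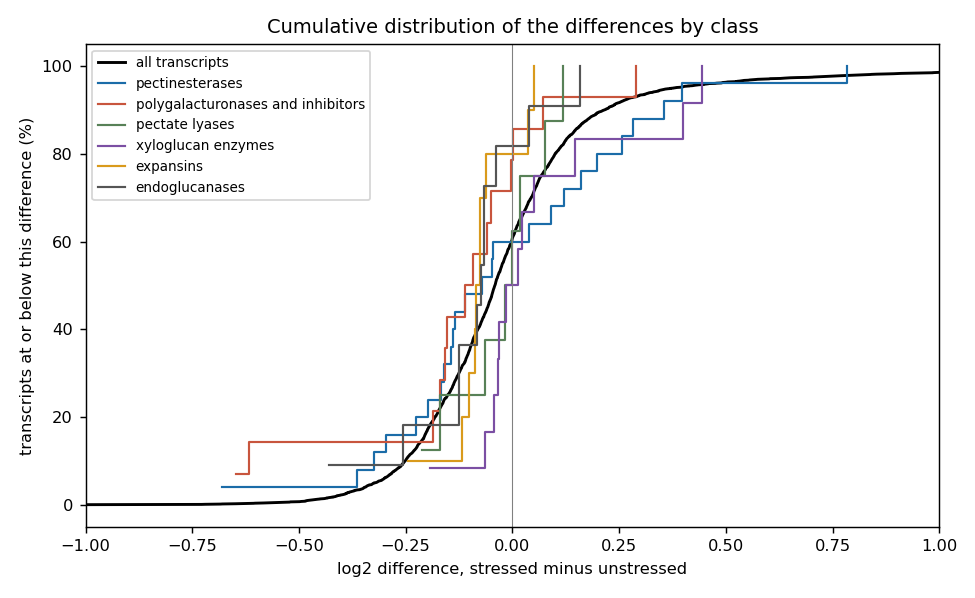
Cumulative share of transcripts (y axis, %) at or below each log2 difference between stressed and unstressed pools (x axis), for all 4000 transcripts in black and for each class of wall-loosening transcripts in colour. Expansins and pectate lyases fill narrow ranges of −0.24 to 0.05 and −0.21 to 0.12, while pectinesterases spread from −0.68 to 0.78. The x axis stops at 1 in either direction.

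Members similar to the same protein did not always share a sign. The 80 transcripts were similar to 70 distinct proteins, and 9 of these were shared by several members, 19 in all. In 3 of the 9 sets the log2 differences had opposite signs. The widest was that of the pectinesterases A33509 and A189844, at 0.78 and −0.23. A189844 had 281 and 283 on the stressed arrays, against 427 and 255 on the unstressed arrays, so its groups overlapped. The difference between these members was not tested, since they were set side by side after their values were seen.

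Of 26 related wall transcripts, chosen by description as enzymes that build or trim pectin, xyloglucan and other matrix polysaccharides, 1 rose and none fell (limma, adjusted p under 0.05), where 0.925% of all transcripts rose and 0.025% fell. It was UDP-glucuronate 5-epimerase A3401, described as an enzyme that acts on a sugar nucleotide from which wall polysaccharides are made. It had intensities of 29327 and 31346 on the stressed arrays, against 8581 and 10768 on the unstressed arrays, 3.15-fold higher (2.38 to 4.19, limma adjusted p = 0.022). At an unadjusted p under 0.05, which 3.82% of all transcripts passed as higher and 1.68% as lower, there was also 1 lower, the beta-galactosidase A16595, at 16037 and 14831 on the stressed arrays against 18899 and 24103 on the unstressed arrays (log2 difference −0.47, limma adjusted p = 0.781). The median log2 difference over the 26 was −0.08.

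The arrays were alike in level and differed in spread. Median intensities over all transcripts were 991 and 1018 on the stressed arrays and 981 and 1010 on the unstressed arrays. The median SD of log2 intensity over the members was 0.10 between stressed arrays and 0.24 between unstressed arrays, against 0.10 and 0.15 over all transcripts. Across members, log2 intensities correlated at r = 0.978 between the stressed arrays and 0.948 between the unstressed arrays, against 0.988 and 0.989 between arrays of the same number in different groups. Arrays with different numbers in different groups correlated at 0.950 and 0.973. These values are computed across the 80 transcripts as a description. The 2 leaf markers were bright, at 29100 to 63243. Markers of xylem, root and dividing cells had values above 0, but so did every transcript on the arrays. No detection call tells a dim transcript from an absent one. No marker transcript was called by limma. Summed intensities of the 39 xylem markers were 211219 and 219540 on the stressed arrays and 239721 and 219446 on the unstressed arrays. Those of the 42 ribosomal protein transcripts were 234226 and 244138 on the stressed arrays and 193955 and 243739 on the unstressed arrays, so unstressed replicate 1 stood lowest. Of these 42, 34 had a positive log2 difference, with a median of 0.11, where 1570 of all 4000 transcripts were positive. Without unstressed replicate 1 only 18 were positive, with a median of −0.00. Whether these had a part in the values of the members was not tested.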

How the data were processed

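The authors deposited 1 intensity per transcript and array on a linear scale. Per the submitters' processing notes they used RMA, and per the labels the arrays were 1-colour NimbleGen arrays. RMA corrects background, equalises arrays and summarises probes, so a shift common to most transcripts is removed and changes of very dim or bright transcripts may be understated. No RMA version is named there. Each member's value rested on 18 probes per the file headers, and descriptions were the same in all 4 array files. The deposited series table held the same intensities (largest difference 0). A deposited column of standard errors had an unexplained scale and was not used.

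Intensities were taken to log2 with nothing added and compared, stressed minus unstressed, with limma 3.58.1 (lmFit, then eBayes; R 4.3.3), on 2 residual and 2.93 prior degrees of freedom, and p-values were adjusted over all 4000 transcripts. No transcript was filtered. Each p-value sets the difference between groups against the spread between pools of a group, which eBayes draws towards that of all transcripts. The number of arrays limits precision. With 2 arrays a group the smallest two-sided p of an exact permutation test is 0.333, so none was run. The fit was tested on simulated data with independent noise on each array. That test therefore did not cover deviations shared by arrays of the same number. Members and lists were chosen with earlier results of these data known. The transcripts named were, in each class, the 3 smallest p, the 3 largest differences in each direction, the 2 highest mean intensities and any with an unadjusted p under 0.05. Members outside this rule that the text names, such as A6081, A6269 and A189844, were named after their values were seen. Alternatives were leaving out each array, a replicate block, median centring, quantile normalization, leaving out the dimmest 25% of transcripts, adding 64 and a trended prior. No genome and no sequences were used here.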

Additional observations from a re-analysis of the deposited data

How the results depend on the processing

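No member was called under any setting but the replicate block, which called 3 of 80 members and 139 of all 4000 transcripts, a similar share. The 3 members were A244101 and A33509, both with the signs given, and A30233 at −0.65 (limma adjusted p = 0.0131, 0.0102 and 0.0438). With that block 10 of 80 members had an unadjusted p under 0.05, for which no share over all transcripts was computed. The labels do not say that a number pairs pools. Deviations of same-numbered arrays from their group means correlated at r = 0.505 over all transcripts and 0.786 over the members. This is a hint from the data only, and 1 residual degree of freedom remained with the block. Leaving out 1 array gave 8 to 27 calls over all transcripts, 0 to 14 members at an unadjusted p under 0.05 and 37 to 59 separate members, the last because fewer arrays separate more easily. Medians of log2 differences then ranged from −0.046 to −0.033 over members, −0.048 to −0.025 for pectin, −0.069 to 0.110 for xyloglucan, −0.240 to 0.013 for expansins, −0.128 to −0.016 for endoglucanases, −0.069 to 0.053 for pectinesterases and −0.193 to 0.030 for polygalacturonases. Without the dimmest 25%, which left 59 members, 13 were separate, a count whose share over all transcripts was not computed. Medians were then −0.043 over members, −0.002 for pectin and 0.090 for pectinesterases, each over fewer transcripts. The polygalacturonase inhibitor A192217 was at −0.010 after median centring. Leaving out inhibitors and glycosyltransferases, chosen after the data were seen, moved no count by over 1.5 times. Of 429 alternative values of named members, 385 kept their sign and side of the threshold, 41 changed sign and 3 passed it. The log2 differences that changed sign when 1 array was left out ranged over A1751 −0.19 to 0.26, A245936 −0.43 to 0.012, A60370 −0.33 to 0.096, A72528 −0.34 to 0.18, A10977 −0.17 to 0.047, A150021 −0.15 to 0.19, A192217 −0.27 to 0.28, A19490 −0.32 to 0.42, A2461 −0.43 to 0.31, A249770 −0.17 to 0.25, A30233 −2.04 to 0.74, A31734 −2.02 to 0.78, A35790 −0.21 to 0.12, A40108 −0.33 to 0.13, A45455 −0.080 to 0.10, A65871 −0.025 to 0.17, A7184 −0.59 to 0.078, A11748 −0.46 to 0.18, A36275 −0.080 to 0.23, A516578 −0.40 to 0.024, A6859 −0.15 to 0.33, A1921 −0.19 to 0.002, A248301 −0.39 to 0.051, A65288 −1.10 to 0.24 and A79373 −0.010 to 0.33.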

Other observations

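The other 14 transcripts that differed at least 2-fold between the arrays numbered 1 and 2, in the same direction in both groups, were named after their values were seen. Of these, 3 are described as late elongated hypocotyl, a factor of the morning phase of the plant clock, and 3 as MYB transcription factors. MYB131 (A6518), which alone stood above the polygalacturonases A31734 and A30233 in the order of the smaller ratio, had a ratio of replicate 1 to replicate 2 of 4.22 in stressed and 5.75 in unstressed pools. The late elongated hypocotyl transcript A3704 had 3.23 in stressed and 3.52 in unstressed pools. An early light-induced protein (A288) had 2.60 in stressed and 2.65 in unstressed pools. A beta-glucosidase (A92459), of a family that includes enzymes trimming wall sugars, ran the other way, at 0.358 in stressed and 0.302 in unstressed pools. What the replicate number stands for, and whether it has a part in these ratios, was not tested.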
